A study of Mus musculus with 4 samples.

Results

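The genes described here are 34 germ cell and meiosis genes that carry the working name of targets of PRC1.6, a variant of Polycomb repressive complex 1. They were taken by symbol from the deposited expression table of 22266 genes, with no filter on expression, and all 34 names were found there. The libraries come from female mouse embryonic stem cells of the line PGK12.1, grown in serum with leukemia inhibitory factor. In all of them Cbx2 is floxed and carries a HaloTag (CBX2fl/fl-HaloTag). The EtOH group (labelled Wildtype, day 0, n = 2) was given ethanol and keeps Cbx2. The OHT group (labelled Knockout, day 2, n = 2) was given 1.0 µM 4-hydroxytamoxifen for 48 hours to delete it. The 4 libraries carry the same batch label. No library used here pairs the drug with an intact gene, so deletion, drug and days in culture cannot be told apart. The labels do not say which recombinase the drug switches on, whether the line is a single clone, or whether replicates are separate cultures. The p-values below thus reflect the scatter of these particular libraries, which could be purely technical.

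PRC1.6 is built around PCGF6 and joins the RING1A/RING1B ubiquitin ligases to DNA-binding subunits. The MGA/MAX pair recognises E-boxes, and E2F6 with a DP partner recognises E2F sites. In embryonic stem cells the complex is known for holding germ cell and meiosis genes down, together with H3K9 methylation and DNA methylation at their promoters. CBX2 belongs to canonical PRC1 and is not a PRC1.6 subunit. Neither binding nor chromatin marks were measured in these libraries, so the name PRC1.6 target is background here.

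Levels are given in TPM (transcripts per 1000000), the length-corrected share of each library's transcripts, which allows genes to be compared within a library but keeps no depth. The depth behind each value is therefore unknown. Cbx2 itself read 2.29 and 2.71 TPM in the EtOH pair and 0.749 and 1.14 TPM in the OHT pair (limma adjusted p = 0.265). All 8 embryonic stem cell markers listed were above 1 TPM, and their summed level was 9318 and 9261 TPM in the EtOH pair and 12256 and 10989 TPM in the OHT pair. For 7 of the 8 both OHT libraries were higher than both EtOH libraries. Over all tested genes 23.1% were higher in this way and 19.4% lower, the background for the marker counts that follow as well. Without Dppa5a the stem cell sums were 4585 and 4649 TPM against 5167 and 5366 TPM. Of 8 fibroblast and feeder markers, 1 reached 1 TPM, and their sum lay between 6.17 and 12.5 TPM, with Postn at 0 in all libraries. Both OHT libraries were higher for 4 of 5 tested trophoblast markers (summed level 28.7 to 39.0 TPM over the libraries). Most of that sum was Krt8 and Krt18 in each library. The trophoblast markers Cdx2 and Elf5 averaged below 1 TPM, were not tested and overlapped between the groups. Both OHT libraries were also higher for 3 of 4 tested markers of primitive endoderm (summed level 274 to 326 TPM). Nearly all of the endoderm sum was Sparc, at 270 and 279 TPM in the EtOH pair and 281 and 320.5 TPM in the OHT pair. Gata6, Foxa2 and Pdgfra averaged below 1 TPM, with Foxa2 lower in both OHT libraries, Pdgfra higher in both and Gata6 overlapping. Of 8 tested markers of 2-cell-like cells, 4 were lower in both OHT libraries, and 1 was higher and passed. That was Gm4340, at 2.78 times (limma adjusted p = 0.0265), which belongs to a family of near-identical copies and is uncertain. The part of these cells in the results below was not tested. The 8 markers of primordial germ cells, which include Prdm1 and Nanos3 of the 34 genes, were all above 1 TPM, with sums of 221 and 217 TPM in the EtOH pair and 182 and 188 TPM in the OHT pair. Without Dppa3 the sums were 109.7 and 113 TPM against 109.3 and 129 TPM. Several of those (Prdm14, Tfap2c, Dppa3) are also expressed by embryonic stem cells. In bulk RNA, fewer cells with a transcript and less RNA per cell cannot be told apart.

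The promoters of the genes are described first, because the DNA-binding subunits of PRC1.6 read short motifs. The motif search was not among the planned tests. RefSeq promoter windows (GRCm38.p6, 250 bases before to 50 bases after a transcript start) matched 29 of the 34 genes. The E-box searched was CACGTG, which reads the same on both strands. The E2F6-type motif was TCCCGC or its reverse complement GCGGGA. These letters do not overlap those of the E-box. An E-box stood in a window of 12 of the 29 genes (41.4%), against 8.09% of 27025 genes with a window and 12.2% of the 9583 that were also expressed enough to be tested here. The E2F6-type motif also stood in 12 of the 29 (41.4%), against 22.0% of all genes and 40.9% of the tested ones, so its share was close to that of expressed genes in general. Both motifs were present for 7 genes, namely Ddx4, Hormad1, Mael, Slc25a31, Stag3, Sycp1 and Sycp3. Neither was found for 12, among them Dazl and Dmrtb1. A motif match is a run of letters and does not show binding.

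Stretches before the start are shown for 6 genes whose expression is described below and which differ in these motifs. Capitals mark E-boxes and E2F6-type motifs, and bases that GENCODE places in an exon of the gene were left out. The first pair carries both motifs, with 2 E-boxes each within 100 bases of the start. Taf7l and Sycp1 show an E-box only in the stretch printed, Smc1b an E2F6-type motif only, and Dmrtb1 neither.

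Hormad1 (chr3:95559427-95559676, plus strand): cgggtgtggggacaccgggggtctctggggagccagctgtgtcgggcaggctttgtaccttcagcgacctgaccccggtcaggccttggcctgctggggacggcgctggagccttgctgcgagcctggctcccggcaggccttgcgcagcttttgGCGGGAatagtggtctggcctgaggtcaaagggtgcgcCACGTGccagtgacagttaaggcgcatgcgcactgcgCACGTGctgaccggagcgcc

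Sycp3 (chr10:88459337-88459568, plus strand): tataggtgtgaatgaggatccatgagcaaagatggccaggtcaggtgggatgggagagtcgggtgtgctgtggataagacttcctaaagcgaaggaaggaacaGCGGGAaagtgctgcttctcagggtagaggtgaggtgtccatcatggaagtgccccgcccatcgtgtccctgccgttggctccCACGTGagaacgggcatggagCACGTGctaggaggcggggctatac

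Taf7l (chrX:134476491-134476740, minus strand): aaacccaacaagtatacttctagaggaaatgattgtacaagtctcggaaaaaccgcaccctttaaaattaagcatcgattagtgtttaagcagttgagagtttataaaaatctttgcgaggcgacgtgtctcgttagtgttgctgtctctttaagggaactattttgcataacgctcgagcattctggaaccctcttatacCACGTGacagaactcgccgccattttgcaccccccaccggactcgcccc

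Sycp1 (chr3:102936101-102936350, minus strand): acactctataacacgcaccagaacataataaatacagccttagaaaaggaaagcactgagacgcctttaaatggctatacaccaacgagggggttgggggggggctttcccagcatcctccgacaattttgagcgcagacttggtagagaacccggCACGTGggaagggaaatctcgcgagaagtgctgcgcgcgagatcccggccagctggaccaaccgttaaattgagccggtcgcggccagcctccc

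Smc1b (chr15:85131965-85132207, minus strand): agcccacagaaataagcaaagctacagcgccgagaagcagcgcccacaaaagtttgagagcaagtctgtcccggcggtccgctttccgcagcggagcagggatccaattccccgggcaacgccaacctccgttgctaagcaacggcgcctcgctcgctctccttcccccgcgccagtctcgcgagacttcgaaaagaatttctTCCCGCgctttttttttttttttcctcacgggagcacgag

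Dmrtb1 (chr4:107684231-107684480, minus strand): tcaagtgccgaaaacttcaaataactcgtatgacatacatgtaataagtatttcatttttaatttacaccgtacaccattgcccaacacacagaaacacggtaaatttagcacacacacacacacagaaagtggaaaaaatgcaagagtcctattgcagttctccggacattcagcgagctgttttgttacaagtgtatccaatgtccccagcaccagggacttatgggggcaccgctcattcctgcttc

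In Hormad1 the E-boxes began 57 and 20 bases before the start, and in Sycp3 they began 64 and 43 bases before it. Of the 12 genes with an E-box, 8 had it within 100 bases before the start, while those of Mael and Mov10l1 lay 223 and 246 bases before it. In Sycp1 an E2F6-type motif follows the start directly and is outside the stretch shown.

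**Figure D1:**
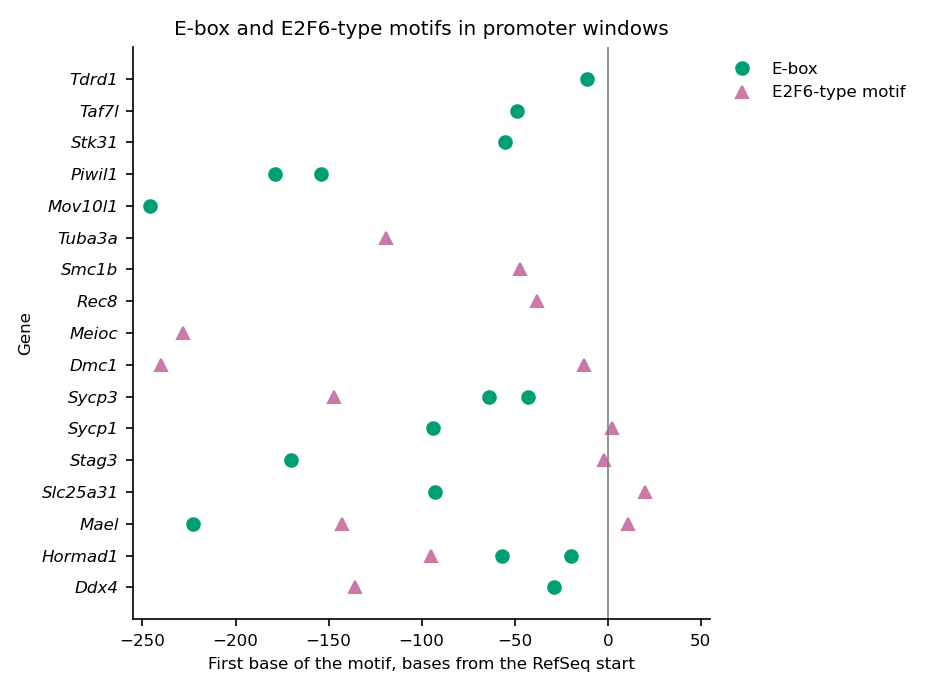
Position of E-boxes (circles) and E2F6-type motifs (triangles) in the RefSeq promoter windows of the 17 genes that hold either, as the distance in bases of the motif's first base from the transcript start (vertical line). For genes with several windows the one with the lowest coordinate that holds a motif is drawn; Hormad1 and Sycp3 each show 2 E-boxes between 64 and 20 bases before the start.

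The genes were not uniformly low. With both groups averaged, 11 of the 34 read above 10 TPM, 17 read 1 to 10 TPM and 6 read below 1 TPM. The level was above the median of all listed genes (1.78 TPM) for 24 and above the median of the tested genes (16.7 TPM) for 7. Hormad1, Tuba3a and Hormad2 were the highest and together held between 46.8% and 49.9% of the summed level in each library. Hormad1 stood at the 92.9th percentile of all listed genes. At the other end, Spo11, the nuclease that makes meiotic DNA breaks, was listed at 0 in all 4 libraries. The other 5 genes below 1 TPM (Meiob, Piwil1, Piwil4, Sycp2 and Tdrd1) lay between 0.0695 and 0.773 TPM in every library.

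**Figure D2:**
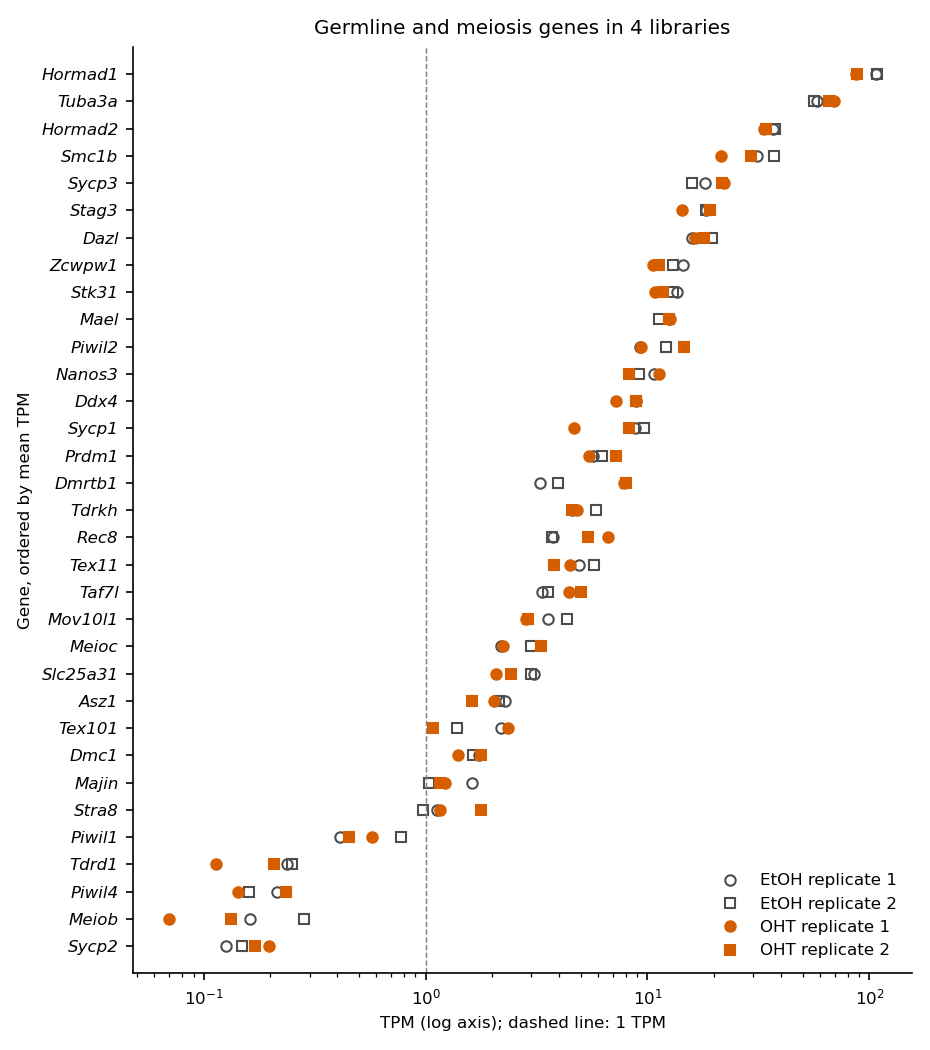
TPM of 33 genes in each of the 4 libraries on a log axis, ordered by mean level (open symbols EtOH, filled symbols OHT, circles replicate 1, squares replicate 2). Spo11 is listed at 0 and not drawn. Levels run from Sycp2, at 0.126 to 0.196 TPM, to Hormad1, at 87.5 to 108 TPM, and for most genes the symbols of the groups lie close together.

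The summed level of the 34 genes was 409 and 418 TPM in the EtOH pair and 381 and 404 TPM in the OHT pair, or 414 ± 6.06 and 392 ± 15.8 TPM (SD, n = 2 each), a ratio of 0.949. Without the 3 highest genes the sums were 207 and 216 TPM in the EtOH pair and 191 and 215 TPM in the OHT pair, which overlap, and the ratio of the means was 0.959.

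To test single genes, values were compared as log2(TPM + 1), a scale that understates the change of low genes. A gene was tested where its mean over the 4 libraries was at least 1 TPM. That held for 28 of the 34, each with both group means above 1 TPM. None of the 28 passed the threshold (limma adjusted p under 0.05 over 12029 genes), where 0.0416% of all tested genes passed. The calls depended on the OHT libraries. Without OHT replicate 1, 2 of the 28 passed (Dmrtb1 and Hormad1), 7.14%, among 2957 genes in all, or 24.6%. Without OHT replicate 2, 6 passed (Dmrtb1, Hormad1, Rec8, Smc1b, Sycp1 and Tuba3a), 21.4%, among 2478, or 20.6%. At an unadjusted p under 0.05 stood 2 higher genes (Dmrtb1 and Rec8, 7.14% of the 28, against 6.02% of all tested genes) and 1 lower gene (Hormad1, 3.57%, against 4.46%). These shares are near the background. With scaling by median of ratios, 9 of the 28 had an unadjusted p under 0.05 in either direction (32.1%, against 15.1% of all tested genes). With quantile normalization there were 7 (25%, against 14.6%), and none passed after adjustment in either. The share depended on the setting. With each library's trend on transcript length and GC content removed, there were 4 of the 28 (14.3%, against 11.9%). With no filter on low values there were 7 of all 34 (20.6%, against 10%). The median log2 fold change of the 28 was -0.07, beside 0.02 for all tested genes, with 10 values above 0 and 18 below. Taken separately and set against the EtOH mean, OHT replicate 1 gave a median of -0.12 and replicate 2 one of -0.05, where all tested genes had medians of -0.09 and 0.14.

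The groups did not overlap, with OHT on the higher side, for 6 of the 28 (21.4%, against 23.1% of all tested genes). OHT was on the lower side for 11 (39.3%, against 19.4%), and the groups overlapped for the other 11. The number on the lower side depended on the scaling. It was 12 (42.9%, against 25.5% of all tested genes) with scaling by median of ratios and 13 (46.4%, against 24.4%) with quantile normalization. With each library's trend on transcript length and GC content removed together, 5 genes lay above and 6 below, the latter 21.4%, against 18.6% of all tested genes, and the median log2 fold change was -0.01. Of the genes on the lower side, that removal left Sycp1 at -0.27, Zcwpw1 and Slc25a31 at -0.19, Tex11 at -0.16, Stk31 at -0.09, Hormad1 at -0.07, Hormad2 at -0.05, Ddx4 at -0.04 and Asz1 at 0.01. Smc1b was at -0.31 after the removal and -0.43 before it, and Mov10l1 at -0.36 after and -0.35 before.

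Between the OHT libraries, the log2 difference went with log2 transcript length across 12016 genes (Pearson r = 0.53), and across the 28 genes (r = 0.61), which share these libraries and are not independent. The log2 fold change itself went with length at r = 0.11 over all tested genes (Spearman 0.11). Over the 28 the direction was opposite, at r = -0.31 (Spearman -0.38). Nanos3, with a longest transcript of 730 bases, read lower in OHT replicate 2 than in replicate 1, and Piwil2, with 4916 bases, read higher. Tdrkh, the longest of the 28 at 5692 bases, read lower in replicate 2, and Stra8, at 1803 bases, read higher. Length and GC content were removed together, so the part of length alone was not tested.

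**Figure D3:**
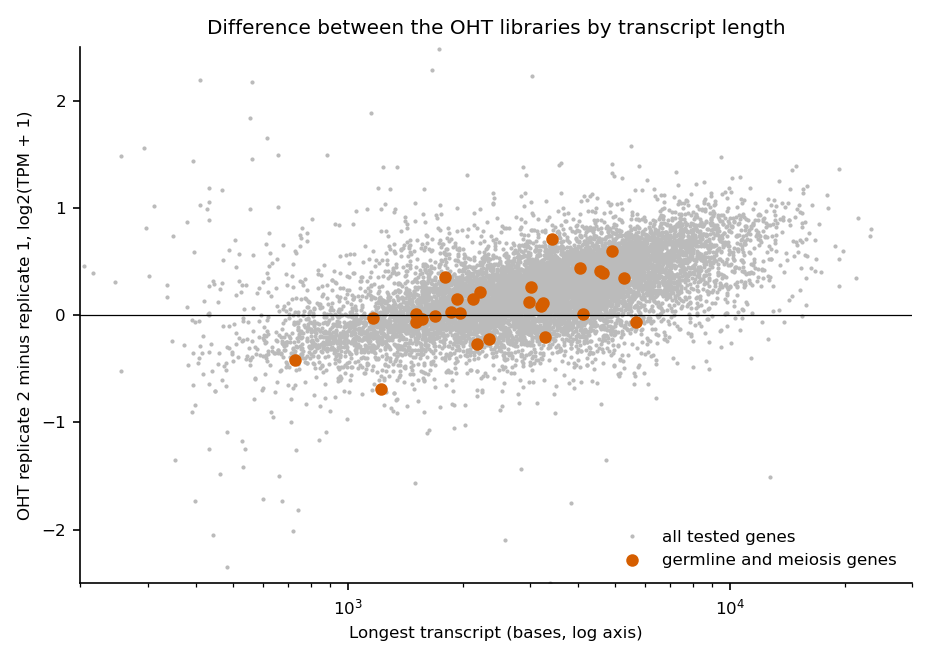
Difference between OHT replicate 2 and OHT replicate 1 in log2(TPM + 1) against the longest annotated transcript in bases (log axis), for all tested genes (grey, 12 lie outside the axes) and the 28 tested germline and meiosis genes (orange). The difference tends to be larger for longer genes in both sets, with exceptions among the 28 such as Tdrkh (long, below zero) and Stra8 (short, above zero).

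Among regulators of germline transcription, Dmrtb1, a DM-domain factor of male germ cells that acts at the turn from mitosis to meiosis, read 3.29 and 3.93 TPM in the EtOH pair and 7.87 and 8.05 TPM in the OHT pair. Both OHT libraries were above both EtOH libraries and the pair was close together, at 2.20 times the EtOH mean. At 0.96 (standard error 0.18) its log2 fold change was the largest of the 28 and did not pass (limma adjusted p = 0.211). Over the alternatives that keep all 4 libraries it ranged in size from 0.59 to 1.12. Its promoter stretch above holds neither motif.

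Stra8, the retinoic acid target that starts meiosis, read 1.12 and 0.972 TPM in the EtOH pair and 1.16 and 1.77 TPM in the OHT pair. The groups barely separated, and the log2 fold change was 0.26 (standard error 0.19, limma adjusted p = 0.703). Meioc, which stabilises meiotic transcripts, read 2.18 and 2.98 TPM in the EtOH pair and 2.23 and 3.31 TPM in the OHT pair, overlapping. Taf7l, a germ cell relative of a general transcription factor subunit on chromosome X, read 3.36 and 3.57 TPM in the EtOH pair and 4.43 and 5.02 TPM in the OHT pair. Both OHT libraries were higher here (log2 fold change 0.36, standard error 0.18, limma adjusted p = 0.551).

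Prdm1 and Nanos3 mark primordial germ cells, the embryonic founders of the germline, as a repressor that specifies them and an RNA-binding survival factor. Prdm1 read 5.68 and 6.26 TPM in the EtOH pair and 5.46 and 7.20 TPM in the OHT pair. Nanos3 read 10.7 and 9.18 TPM in the EtOH pair and 11.3 and 8.24 TPM in the OHT pair. In both genes the OHT values enclosed the EtOH values.

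Meiotic cohesin genes read in opposite directions. Cohesin is the ring that holds sister chromatids, and meiosis uses its own subunits. The kleisin gene Rec8 (chromosome 14, 55618037 to 55625395, plus strand) read 3.75 and 3.71 TPM in the EtOH pair and 6.67 and 5.38 TPM in the OHT pair. It was higher in both OHT libraries, at 1.61 times the EtOH mean, with a log2 fold change of 0.56 (standard error 0.19, limma adjusted p = 0.394). The SMC subunit gene Smc1b read 31.3 and 37.3 TPM in the EtOH pair and 21.4 and 29.4 TPM in the OHT pair, lower in both OHT libraries at 0.741 times. Its log2 fold change was -0.43 (standard error 0.19, limma adjusted p = 0.514), and -0.65 in OHT replicate 1 against -0.21 in replicate 2. Stag3, the third meiotic subunit, read 18.4 and 18.3 TPM in the EtOH pair and 14.3 and 19.07 TPM in the OHT pair, so its groups overlapped.

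The chromosome axis genes also differed from each other. HORMAD1 and HORMAD2 are HORMA-domain proteins of unsynapsed axes. Hormad1 (chromosome 3, 95559677 to 95587671, plus strand) read 108 TPM in both EtOH libraries and 87.5 and 88.4 TPM in the OHT pair. Replicates agreed closely within each group, so this small difference (log2 fold change -0.29, standard error 0.10, 0.816 times) lay outside the spread between replicates, yet it did not pass (limma adjusted p = 0.398). After removal of the length and GC trend its log2 fold change was -0.07. An annotated copy of Hormad1, Gm15529, is 97.7% identical and is not in the table, so reads from it could count for Hormad1. Hormad2 read 36.9 and 37.4 TPM in the EtOH pair and 33.6 and 34.2 TPM in the OHT pair (log2 fold change -0.13, standard error 0.12).

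Sycp3, the axis core protein gene with 2 promoter E-boxes, read 18.2 and 15.8 TPM in the EtOH pair and 22.1 and 21.7 TPM in the OHT pair. Both OHT libraries were above both EtOH libraries, the reverse of Hormad1, which carries the same motifs (log2 fold change 0.35, standard error 0.15, limma adjusted p = 0.495). After the same removal it was 0.62. The gene shares 660 exon bases with Chpt1 on the opposite strand, and without stated strand information those reads cannot be told apart. Chpt1 read 16.2 and 15.8 TPM in the EtOH pair and 18.1 and 16.8 TPM in the OHT pair, also higher in both OHT libraries (log2 fold change 0.11). Sycp2, the axis partner of Sycp3, was below 0.2 TPM in every library. Both OHT values (0.196 and 0.170 TPM) were above both EtOH values (0.126 and 0.148 TPM). Sycp1, the transverse filament of the synaptonemal complex, read 8.78 and 9.62 TPM in the EtOH pair and 4.67 and 8.25 TPM in the OHT pair. Its log2 fold change of -0.49 (standard error 0.27, limma adjusted p = 0.588) rests mostly on OHT replicate 1, at -0.85 against -0.14 in replicate 2, and was -0.27 after removal of the length and GC trend.

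**Figure D4:**
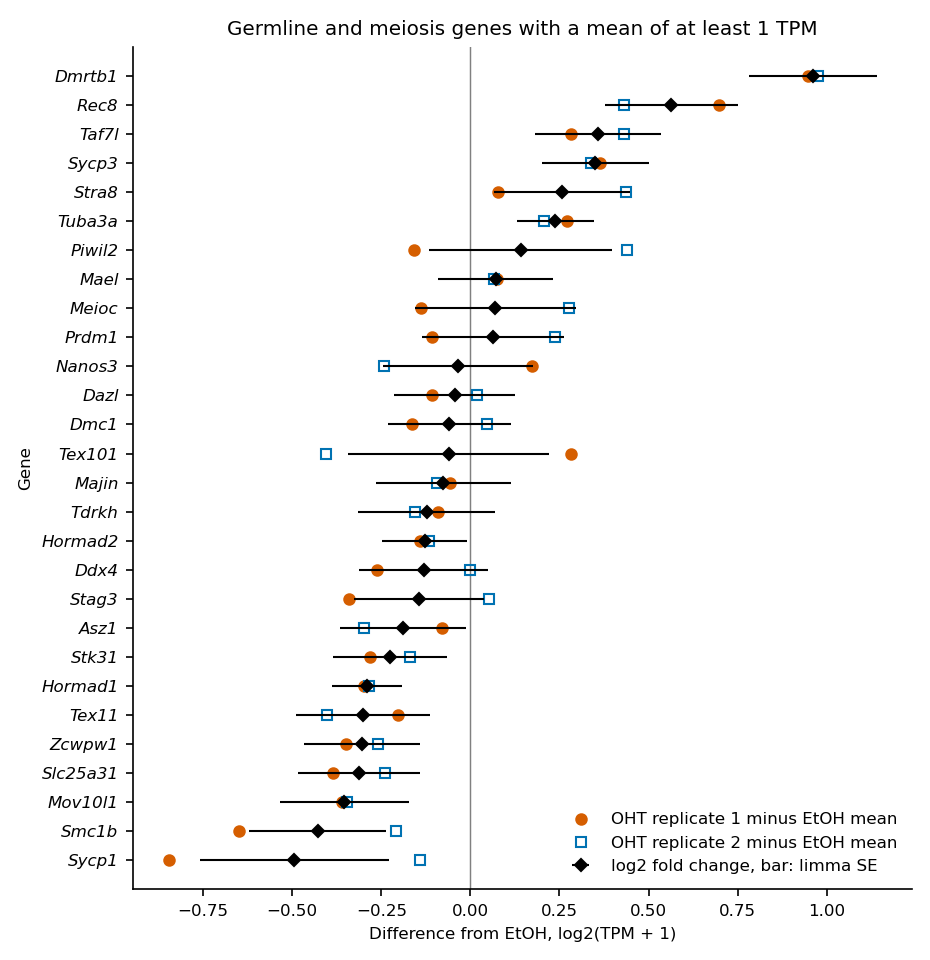
Difference from EtOH in log2(TPM + 1) for the 28 tested genes, ordered by log2 fold change (diamonds, with limma's standard error as bars). Circles and squares give OHT replicates 1 and 2 against the EtOH mean; for Dmrtb1 (0.96) and Hormad1 (-0.29) they coincide, while for Sycp1, Piwil2 and Tex101 they lie far apart.

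Recombination and telomere genes were mostly low. Dmc1, the meiotic strand exchange recombinase, read 1.75 and 1.64 TPM in the EtOH pair and 1.40 and 1.78 TPM in the OHT pair. Majin, which ties telomeres to the nuclear envelope, read 1.62 and 1.04 TPM in the EtOH pair and 1.22 and 1.17 TPM in the OHT pair. Both overlapped between the groups. Meiob, the single-strand DNA-binding partner in recombination, was among the genes below 1 TPM, and both OHT libraries (0.0695 and 0.132 TPM) lay below both EtOH libraries (0.162 and 0.284 TPM). Zcwpw1, a histone methylation reader that helps repair meiotic breaks, stood higher, at 14.4 and 13.1 TPM in the EtOH pair and 10.6 and 11.3 TPM in the OHT pair. It was lower in both OHT libraries (log2 fold change -0.30, standard error 0.16, limma adjusted p = 0.582). Tex11, an X-linked crossover factor gene, read 4.93 and 5.74 TPM in the EtOH pair and 4.50 and 3.79 TPM in the OHT pair, also lower in both (log2 fold change -0.30, standard error 0.19).

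Genes of the piRNA pathway, which silences transposons in germ cells, were read at very different levels. Of the PIWI proteins, which carry piRNAs, Piwil2 stood at 9.21 and 12.1 TPM in the EtOH pair and 9.38 and 14.7 TPM in the OHT pair. Piwil1 and Piwil4 stayed below 1 TPM. Piwil2 followed replicate number more than group, with a log2 difference of -0.16 in OHT replicate 1 and 0.44 in OHT replicate 2. Mael, a piRNA factor of the nuage, read 12.6 and 11.3 TPM in the EtOH pair and 12.6 and 12.5 TPM in the OHT pair, overlapping.

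The helicase gene Mov10l1, needed to make piRNAs, read 3.57 and 4.34 TPM in the EtOH pair and 2.84 and 2.88 TPM in the OHT pair. It was lower in both OHT libraries at 0.724 times (log2 fold change -0.35, standard error 0.18, limma adjusted p = 0.561). Asz1, a mitochondrial anchor of the pathway, read 2.28 and 2.15 TPM in the EtOH pair and 2.04 and 1.61 TPM in the OHT pair (log2 fold change -0.19, standard error 0.18). Tdrkh, a tudor protein that trims piRNA ends with its partners, read 4.55 and 5.87 TPM in the EtOH pair and 4.79 and 4.55 TPM in the OHT pair, overlapping. It shares 2255 exon bases with Oaz3 on the opposite strand, which was at or near 0. Tdrd1, another tudor scaffold, was below 0.3 TPM in every library, with both OHT values (0.113 and 0.206 TPM) under both EtOH values (0.237 and 0.251 TPM).

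Dazl and Ddx4 are widely used germ cell markers. Dazl, a translational regulator of germ cells, read 15.95 and 19.6 TPM in the EtOH pair and 16.4 and 17.9 TPM in the OHT pair. The OHT values lay inside the EtOH range, and the log2 fold change was -0.04 (standard error 0.17, limma adjusted p = 0.957). Ddx4, the vasa RNA helicase gene with both motifs in its promoter window, read 8.86 and 8.85 TPM in the EtOH pair and 7.22 and 8.85 TPM in the OHT pair (log2 fold change -0.13, standard error 0.18). The higher OHT value was almost equal to the lower EtOH value. Stk31, a tudor-domain kinase relative, read 13.7 and 13.0 TPM in the EtOH pair and 10.8 and 11.7 TPM in the OHT pair, lower in both OHT libraries (log2 fold change -0.22, standard error 0.16).

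Among genes of later testis cells, the alpha tubulin gene Tuba3a read 58.1 and 56.2 TPM in the EtOH pair and 69.2 and 66.1 TPM in the OHT pair. Both OHT libraries were higher, at 1.18 times (log2 fold change 0.24, standard error 0.11, limma adjusted p = 0.518). Tuba3b is 96.5% identical and could take some of its reads. The sum over both genes was 64.6 and 62.1 TPM in the EtOH pair and 75.2 and 71.0 TPM in the OHT pair, also higher. Slc25a31, the germ cell ADP/ATP carrier, read 3.10 and 2.97 TPM in the EtOH pair and 2.09 and 2.42 TPM in the OHT pair (log2 fold change -0.31, standard error 0.17), lower in both. Tex101, a sperm surface protein gene, read 2.19 and 1.39 TPM in the EtOH pair and 2.36 and 1.08 TPM in the OHT pair, with the spread inside each group larger than the difference.

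Genes with and without an E-box were set side by side as a description. The 10 tested genes with an E-box had a median log2 fold change of -0.18 (from -0.49 to 0.36), with 2 higher in both OHT libraries and 6 lower. The 15 tested genes with a window but no E-box had a median of -0.04 (from -0.43 to 0.96), with 4 higher and 4 lower. Over all tested genes 23.1% were higher and 19.4% lower. The ranges overlap widely. The median level was 8.14 TPM over the 12 genes with an E-box and 4.94 TPM over the 17 without.

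PRC1.6 subunits were themselves well expressed, and all 16 listed were tested. None passed the threshold. The direction of their median log2 fold change depended on the OHT library kept, at 0.05 without OHT replicate 1 and -0.19 without OHT replicate 2. An unadjusted p under 0.05 was found for 3, all lower (18.75% of the 16, against 4.46% of all tested genes), and for 0 higher (against 6.02%). In either direction that is 18.8%, against 10.5% of all tested genes. After removal of the length and GC trend, 2 of the 16 were at that level in either direction (12.5%, against 11.9%). Pcgf6, the defining subunit, read 83.3 and 82.3 TPM in the EtOH pair and 59.8 and 66.1 TPM in the OHT pair, 0.760 times (log2 fold change -0.39, standard error 0.11, limma adjusted p = 0.328). Cbx3, which encodes the HP1 gamma subunit, read 274 and 273 TPM in the EtOH pair and 208 and 241 TPM in the OHT pair (log2 fold change -0.29, standard error 0.10). Cbx1, its HP1 beta relative, read 240.1 and 244 TPM in the EtOH pair and 181 and 189.5 TPM in the OHT pair (log2 fold change -0.38, standard error 0.09, limma adjusted p = 0.267). Both OHT libraries were lower than both EtOH libraries in each of these genes. Over the 16 this held for 6 (37.5%, against 19.4% of all tested genes), and 2 were higher in both (12.5%, against 23.1%).

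Of the DNA-binding subunits, Mga, E2f6 and Tfdp2 overlapped between the groups. Max was higher in both OHT libraries and Tfdp1 lower in both. Mga, the E-box-binding scaffold, read 22.3 and 28.8 TPM in the EtOH pair and 19.5 and 40.4 TPM in the OHT pair, with the OHT libraries on either side of EtOH. Its longest transcript, at 13931 bases, is the longest of the 16. Max read 94.5 and 93.9 TPM in the EtOH pair and 96.0 and 97.1 TPM in the OHT pair (log2 fold change 0.03, standard error 0.10). E2f6 read 15.2 and 15.4 TPM in the EtOH pair and 13.8 and 15.9 TPM in the OHT pair, overlapping. Its partner genes Tfdp1 and Tfdp2 had log2 fold changes of -0.26 (standard error 0.13) and 0.18 (standard error 0.16).

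The remaining subunits had log2 fold changes between -0.15 and 0.17. L3mbtl2, the MBT-domain compaction subunit, read 109 and 114 TPM in the EtOH pair and 94.4 and 118 TPM in the OHT pair. The ubiquitin ligase genes Ring1 and Rnf2 had log2 fold changes of -0.14 (standard error 0.18) and 0.04 (standard error 0.11), and the RING cofactors Rybp and Yaf2 had 0.02 (standard error 0.16) and 0.17 (standard error 0.18). For the deacetylase genes Hdac1 and Hdac2 they were -0.15 (standard error 0.10) and -0.10 (standard error 0.10), and for Wdr5 -0.01 (standard error 0.11). The median over the 16 was -0.06, at -0.19 in OHT replicate 1 and 0.05 in OHT replicate 2.

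A list of 20 genes under the heading of DNA and H3K9 methylation was also read. The heading is loose, as Tet1, Tet2, Tet3, Kdm1a, Kdm1b, Kdm5c and Zbtb16 on it do not deposit these marks. Of the 20 genes, 19 were tested, and none passed. At an unadjusted p under 0.05, 2 were lower (10.5%, against 4.46% of all tested genes) and 1 was higher (5.26%, against 6.02%). Dnmt3b, a DNA methyltransferase that acts on germline promoters, read 74.4 and 77.9 TPM in the EtOH pair and 45.2 and 62.6 TPM in the OHT pair (log2 fold change -0.51, standard error 0.17, limma adjusted p = 0.397). Trim28, the KAP1 corepressor gene, read 1357 and 1350.4 TPM in the EtOH pair and 1056 and 1178 TPM in the OHT pair (log2 fold change -0.28, standard error 0.09, limma adjusted p = 0.373). Tet3, a 5-methylcytosine oxidase gene, read 2.68 and 3.19 TPM in the EtOH pair and 3.97 and 6.93 TPM in the OHT pair (log2 fold change 0.68, standard error 0.26, limma adjusted p = 0.454). Dnmt3a, the other de novo enzyme gene, had a log2 fold change of -0.28 (standard error 0.16). All 19 read higher in OHT replicate 2 than in OHT replicate 1, as did 76.1% of all tested genes.

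**Figure D5:**
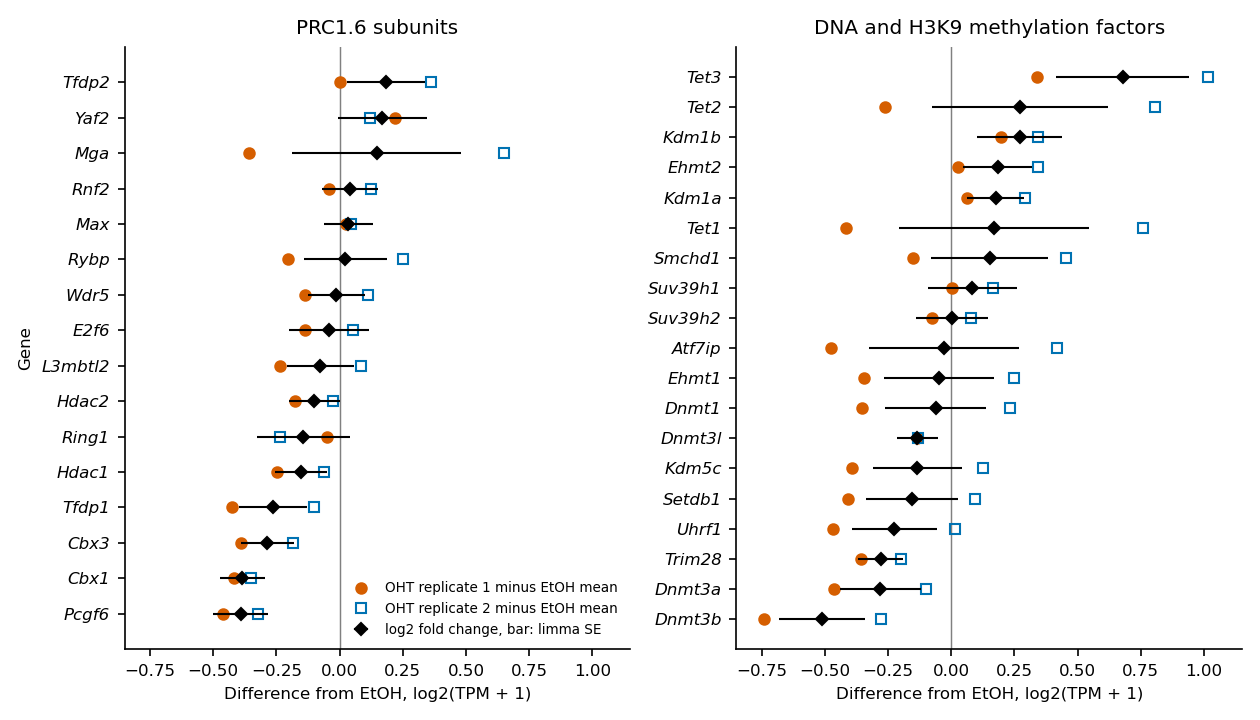
Difference from EtOH in log2(TPM + 1) for 16 PRC1.6 subunits (left) and 19 genes listed under DNA and H3K9 methylation (right). Diamonds and bars give log2 fold changes and limma's standard errors, and circles and squares the values of OHT replicates 1 and 2. Pcgf6, Cbx1 and Cbx3 lie below zero in both libraries, and Mga, Tet1 and Tet2 have their OHT libraries on opposite sides of zero.

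Other germ cell and meiosis genes, 60 that are not among the 34, were read from the same comparison. Of these, 58 were found and 37 tested, and none passed. Without OHT replicate 1 there were 5 that passed (13.5%, against 24.6% of all genes), and without OHT replicate 2 there were 8 (21.6%, against 20.6%). At an unadjusted p under 0.05 stood 1 higher and 5 lower, or 2.70% and 13.5% of the 37, against 6.02% and 4.46% of all tested genes. The 5 lower ones were Tdrd12, Ccnb1ip1, Spata22, Boll and Syce1. Tdrd12, a piRNA pathway helicase gene, read 62.4 and 63.0 TPM in the EtOH pair and 39.1 and 37.7 TPM in the OHT pair, 0.612 times, with close replicates (log2 fold change -0.69, standard error 0.11, limma adjusted p = 0.158). Ccnb1ip1, a crossover ligase gene, read 72.1 and 69.0 TPM in the EtOH pair and 50.7 and 43.4 TPM in the OHT pair (log2 fold change -0.58, standard error 0.13).

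Spata22, the partner of Meiob in recombination, read 5.66 and 5.08 TPM in the EtOH pair and 1.90 and 2.87 TPM in the OHT pair (log2 fold change -0.93, standard error 0.21, limma adjusted p = 0.267). Boll, the ancestral relative of Dazl, read 2.57 and 2.30 TPM in the EtOH pair and 1.17 and 1.36 TPM in the OHT pair, and Syce1, a central element gene of the synaptonemal complex, had a log2 fold change of -0.41 (standard error 0.12). The higher gene was Rec114, an activator of meiotic breaks, at 16.1 and 14.9 TPM in the EtOH pair and 23.2 and 19.6 TPM in the OHT pair (log2 fold change 0.44, standard error 0.16). Over the 37 the median log2 fold change was 0.02, beside 0.02 for all tested genes. Without overlap between the groups, OHT was higher for 6 (16.2%, against 23.1% of all tested genes) and lower for 9 (24.3%, against 19.4%).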

How the data were processed

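Poly(A)-selected RNA was sequenced from 4 libraries (EtOH, n = 2; OHT, n = 2). The authors deposited TPM made with Trim Galore and Salmon on GRCm38 (mm10), per the submitters' processing notes. The sources used here do not give versions, the annotation release, the strand setting or any bias correction in Salmon. TPM keeps no depth, so neither counting intervals nor detection floors are given. The table also holds 2 columns that match no sample used here and were not used.

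The 12029 genes averaging 1 TPM or more were compared as log2(TPM + 1), pseudocount 1, with limma 3.58.1 in R 4.3.3 (mean-variance trend, two-sided, 2 residual and 4.01 prior degrees of freedom). Adjustment was Benjamini-Hochberg across every gene tested, with a threshold of 0.05. Exact permutation of 2 against 2 cannot give a p below 0.333 and was not run. The fit was also run on simulated data with independent noise in each gene. Those data hold no trend on transcript length, so they cannot show how the fit behaves under such a trend. Error terms are limma's moderated standard errors.

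The members and lists were chosen with earlier results of these data known. Every member with a mean of at least 1 TPM is named with its values. Those below are given by range, and Meiob, Sycp2 and Tdrd1 were singled out after their values were seen. All PRC1.6 subunits are given, with up to 4 genes of the DNA and H3K9 methylation list and 6 other germ cell genes by smallest p. The motif searches were not part of the planned tests.

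Coordinates, exon overlaps and the longest transcript of a gene come from GENCODE mouse release 21 (GRCm38), matched to 22213 identifiers without version numbers. Copies were sought with blastn 2.17.0 at 95% identity over 50% of the shorter transcript. Alternatives were pseudocounts of 0.1, 0.5 and 5, no filter, a 5 TPM minimum, scaling by median of ratios, limma with robust moderation or with no trend, quantile normalization, a replicate block, removal of each library's trend on length and GC content (natural splines with 4 degrees of freedom each), and leaving out each library. Counts of genes without overlap between the groups under other scalings were added after seeing the data.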

Additional observations from a re-analysis of the deposited data

How the results depend on the processing

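None of the 28 genes passed under the pseudocounts, filters, scalings, moderation choices or trend removal tried. Fits without EtOH replicate 1 or 2 take their spread from the OHT pair alone, so they cannot decide whether a gene passes. Without OHT replicate 1 or 2, where the single OHT library left takes its spread from the EtOH pair, 2 and 6 passed. The count over the leave-one-out fits thus ran from 0 to 6, that of PRC1.6 subunits from 0 to 6, that of the other germ cell genes from 0 to 8 and that of all genes from 34 to 2957. Dmrtb1 and Hormad1 were the 2 that passed without OHT replicate 1, and they also passed without replicate 2. Over all genes, limma passed 0 without a filter (2228 at an unadjusted p under 0.05), 3 with median of ratios scaling, quantile normalization or no trend, and 45 after removal of the length and GC trend, against 5.

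What the replicate numbers mark is not given in the labels and no pairing was assumed. The EtOH and OHT differences between replicates 1 and 2 correlated at 0.29 across genes. With a replicate block 474 genes passed, with 1 of the 28 (Dmrtb1, adjusted p = 0.00194), 3 of the other germ cell genes and 0 PRC1.6 subunits.

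The median log2 fold change of the members was -0.133 with quantile normalization and -0.0104 after removal of the length and GC trend, and ran from -0.126 to -0.0480 over the leave-one-out fits. The count with both OHT libraries lower, 11 as deposited, was 12 with median of ratios scaling, 13 with quantile normalization and 6 with that trend removed. Of 408 single-gene values under 15 alternatives, 377 kept direction and call, 9 newly passed and 22, in 12 genes, changed direction. With quantile normalization Meioc read -0.0249 and Prdm1 -0.0306. With the trend removed Asz1 read 0.0124, Dazl 0.15, Dmc1 0.0461 and Nanos3 0.0115. Over the leave-one-out fits the ranges were -0.19 to 0.0966 for Dazl, -0.17 to 0.0476 for Dmc1, -0.00130 to 0.14 for Mael, -0.26 to 0.11 for Majin, -0.14 to 0.28 for Meioc, -0.24 to 0.17 for Nanos3, -0.16 to 0.44 for Piwil2, -0.11 to 0.24 for Prdm1, -0.34 to 0.0510 for Stag3, -0.28 to 0.0308 for Tdrkh and -0.41 to 0.28 for Tex101. The cause of these changes was not tested.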

Other observations

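E-boxes were also counted in promoter windows of the 50 other germ cell and meiosis genes that had a window, as a description. An E-box stood in 12 of the 50 (24.0%), below the 41.4% of the 29 genes of the report and above the 12.2% of tested genes in general. The E2F6-type motif stood in 21 (42.0%), near the 40.9% of tested genes. At least 2 E-boxes in a single window were found for 3 of the 29 (10.3%) and 4 of the 50 (8%), against 0.681% of all genes with a window and 1.41% of tested ones. The median ratio of observed to expected CpG was 0.766 for the 29 and 0.644 for the 50, beside 0.796 for tested genes and 0.415 for all genes with a window.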
